A study of Mus musculus with 2 samples.

Results

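The genes described here are 34 genes of protein folding and quality control in the endoplasmic reticulum (ER) and of the unfolded protein response (UPR). They were chosen by symbol, with earlier results of these data known. Each has at least 1 array probe set whose single gene symbol is on the list. All 34 were measured, out of 19938 genes with a probe set of a single symbol. By role they comprised 11 chaperones and their cofactors, 6 genes of disulfide bond formation, 10 genes of ER-associated degradation, and 7 stress sensors and their transcription factors. Their values came from whole pancreas of E15.5 mouse embryos on an ICR background, with 1 array of wild type (WT) and 1 array of MafK transgenic (*Mafk*-Tg) tissue. The *Mafk*-Tg embryos carried a MafK cDNA with an N-terminal FLAG tag, placed behind the rat insulin I promoter and first injected into BDF1 eggs. This promoter drives the transgene in insulin-producing cells, whereas the arrays read RNA of the whole organ. MafK is a small MAF protein that lacks a transactivation domain and can block the large MAF factors of the β-cell. The design text gives 3 pancreata per genotype, and the sources used here do not say whether they were pooled on each array.

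Secreted and membrane proteins enter the ER unfolded, where chaperones hold them, oxidoreductases form and rearrange their disulfide bonds, and proteins that fail to fold are sent back to the cytosol for degradation by the proteasome. When unfolded proteins build up, the sensors IRE1, PERK and ATF6 start the UPR: IRE1 splices the RNA of *Xbp1*, PERK phosphorylates the translation factor eIF2α, and ATF6 is cut to release a transcription factor. Spliced XBP1 and cleaved ATF6 switch on genes of folding and degradation. Pancreatic acinar cells, which make digestive enzymes, and β-cells, which make insulin, are among the cells that depend most on this machinery.

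A difference is given throughout as the log2 value of the *Mafk*-Tg array minus that of the WT array, and a gene is counted as higher or lower when it differed by at least 1.2-fold, the cutoff of the study, which is 0.263 on the log2 scale. Each genotype has 1 array, which leaves replicate spread unknown and allows no test, and every comparison describes these 2 arrays. Array levels of different genes are not comparable, so that differences are read within a gene only.

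The ER genes as a whole were higher in *Mafk*-Tg by a small amount. Of the 34 genes, 10 were at least 1.2-fold higher and 0 were lower, 29 had a difference above 0, and the median difference was 0.19 on the log2 scale. Among all 19938 genes, 7.96% were at least 1.2-fold higher and 10.5% lower, 8960 had a difference above 0, and the median difference was -0.01. Dim probe sets vary more, and 32 of the 34 genes had a mean level no lower than the median over all genes, a log2 value of 6.40. The background used below is therefore the 9969 genes at or above that level, of which 5.36% were higher and 5.28% lower. None of the 34 differed by 1.5-fold, a size that 0.251% of the 9969 genes reached in the higher direction. At 1.1-fold, 23 of the 34 genes were higher and 1 was lower, where the background held 17.9% higher and 18.9% lower. Set against the ranking of the 9969 genes by difference, 16 of the 34 genes stood at or above the position that 90% of them lie below. These included *Ern2*, which is dimmer than the 9969 genes and not part of that ranking. The genes with the largest differences were *Derl3* at 0.52, *Sdf2l1* at 0.48 and *Dnajb9* at 0.40. By role the median difference was 0.22 for chaperones, 0.24 for disulfide enzymes, 0.20 for degradation genes and 0.04 for the sensors and their factors, whose range of -0.20 to 0.21 overlapped those of the other roles.

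**Figure D1:**
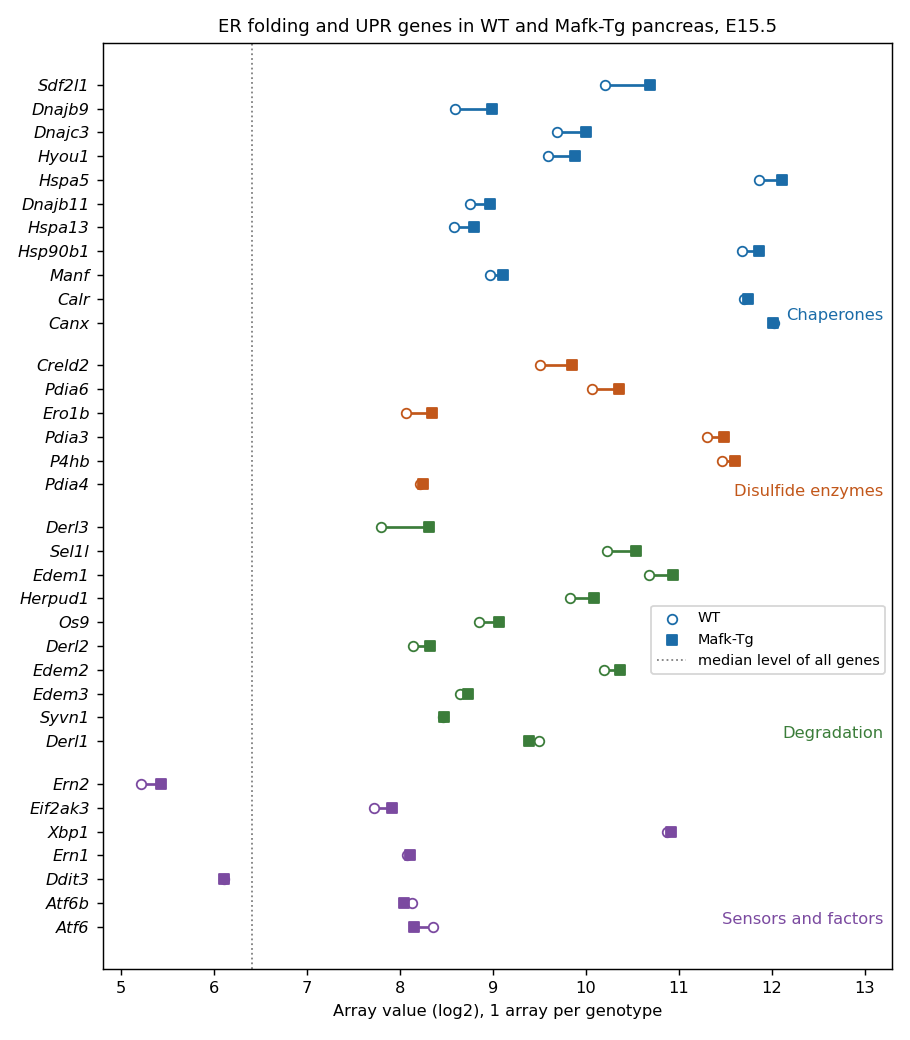
Log2 array values (x axis) of the 34 ER genes in WT (open circles) and *Mafk*-Tg (filled squares), 1 array per genotype, grouped and coloured by role and ordered by difference, with the median level of all genes as a dotted line. The square lies to the right of the circle for most chaperones, disulfide enzymes and degradation genes, with *Derl3* going from 7.79 to 8.32, and symbols overlap or swap order among several sensors.

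Many ER genes are known to carry an ER stress response element (ERSE) in the promoter, in which the factor NF-Y binds CCAAT and cleaved ATF6 or XBP1 binds CCACG. The promoters are shown here because most of these genes differed in the same direction. A promoter window, 250 bases before to 50 bases after the start, was given by RefSeq (GRCm38.p6) for 28 of the 34 genes, all but *Hyou1*, *Hspa13*, *Manf*, *Derl1*, *Ern2* and *Atf6*. The ERSE, searched as CCAAT, then 9 bases, then CCACG, on both strands, was found in 10 of the 28 genes, and in 37 of all 27025 genes with a window, or 0.137%. ERSE-II, searched as ATTGG, 1 base, then CCACG, on both strands, was found in *Herpud1* and *Dnajb11*, and in 0.0444% of all genes. These sites are printed 5′ to 3′ on the strand of the gene with 15 bases on each side, and capitals mark the NF-Y part and the ATF6 or XBP1 part. A site that lies on the opposite strand therefore reads CGTGG first and ATTGG last. The chaperone sites were these, the first at 65 bases before the start of *Hspa5* (chr2:34772010-34772058, + strand), followed by both sites of *Hsp90b1* (chr10:86705623-86705671 and chr10:86705518-86705566, - strand), and those of *Dnajc3* (chr14:118937812-118937860, + strand), *Calr* (chr8:84847060-84847108, - strand) and *Canx* (chr11:50325785-50325833, - strand).
Hspa5: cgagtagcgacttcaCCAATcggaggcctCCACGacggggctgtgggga
Hsp90b1, distal: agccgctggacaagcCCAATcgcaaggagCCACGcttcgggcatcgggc
Hsp90b1, proximal: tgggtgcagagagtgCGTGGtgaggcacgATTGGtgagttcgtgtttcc
Dnajc3: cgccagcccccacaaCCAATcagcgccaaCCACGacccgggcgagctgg
Calr: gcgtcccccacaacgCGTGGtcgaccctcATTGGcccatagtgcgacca
Canx: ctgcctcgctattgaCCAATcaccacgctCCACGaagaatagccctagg

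The disulfide and degradation genes with a site were *Pdia6* (chr12:17266476-17266524, + strand), *Ero1b* (chr13:12565667-12565715, + strand), *Creld2* (chr15:88819505-88819553, + strand), *Syvn1* (chr19:6046517-6046565, + strand), *Derl3* (chr10:75893227-75893275, + strand) and, with ERSE-II, *Herpud1* (chr8:94386362-94386402, + strand). The ERSE-II of *Dnajb11* lies 8 to 18 bases after the start, within the transcript, and is not printed.
Pdia6: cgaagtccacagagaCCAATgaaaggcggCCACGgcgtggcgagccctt
Ero1b: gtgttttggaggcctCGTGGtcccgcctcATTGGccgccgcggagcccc
Creld2: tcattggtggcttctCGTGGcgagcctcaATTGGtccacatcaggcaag
Syvn1: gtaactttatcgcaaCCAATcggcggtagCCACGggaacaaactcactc
Derl3: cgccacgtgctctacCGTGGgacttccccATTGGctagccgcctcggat
Herpud1: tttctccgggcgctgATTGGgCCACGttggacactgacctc

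A match of these letters describes the window and does not show that a factor was bound. Only exact matches were searched, so variants of the element in a window, that of *Hspa5* included, are not marked. Genes with and without a match had overlapping differences. The 12 genes with an ERSE or ERSE-II had a median difference of 0.25, from -0.01 to 0.52. Of them, 5 were at least 1.2-fold higher, beside 5.36% of the 9969 background genes. The 16 genes with a window and neither element had a median of 0.18, from -0.09 to 0.48, and 4 of them were higher. *Derl3* and *Sdf2l1*, the genes with the largest differences, fell on opposite sides of this division, and *Canx*, *Syvn1* and *Calr* held an exact ERSE at differences of -0.01, 0.02 and 0.04. The 250 bases before the start of *Derl3* (chr10:75893148-75893397, + strand) and of *Sdf2l1* (chr16:17132384-17132633, - strand) are shown for comparison with those of *Hspa5* (chr2:34771840-34772089, + strand), whose promoter is among those in which the element was first described, with capitals for the ERSE where there is one.
Derl3 promoter: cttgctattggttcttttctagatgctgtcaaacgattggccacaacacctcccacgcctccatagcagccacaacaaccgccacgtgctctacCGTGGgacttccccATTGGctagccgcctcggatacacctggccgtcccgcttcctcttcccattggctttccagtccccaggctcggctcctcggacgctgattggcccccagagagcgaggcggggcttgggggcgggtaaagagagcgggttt
Sdf2l1 promoter: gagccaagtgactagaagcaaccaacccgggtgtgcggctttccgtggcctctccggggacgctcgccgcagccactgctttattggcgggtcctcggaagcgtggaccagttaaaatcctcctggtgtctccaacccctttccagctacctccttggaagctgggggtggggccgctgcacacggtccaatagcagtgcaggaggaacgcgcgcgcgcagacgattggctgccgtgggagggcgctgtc
Hspa5 promoter: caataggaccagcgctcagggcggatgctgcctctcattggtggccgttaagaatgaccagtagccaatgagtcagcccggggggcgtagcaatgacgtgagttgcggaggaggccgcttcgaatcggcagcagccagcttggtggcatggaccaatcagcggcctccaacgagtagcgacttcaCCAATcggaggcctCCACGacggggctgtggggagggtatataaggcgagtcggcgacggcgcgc

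MAF proteins bind the MAF recognition element (MARE), and its letters were searched in the same windows because the transgene encodes a MAF protein. The whole MARE, TGCTGA and TCAGCA separated by 1 base or by 2 bases, was found in 0 of the 28 genes, and in 0.0074% of all genes for either spacing. The half-site TGCTGA, which the whole element contains, was found on either strand in *Calr*, *Canx* and *Xbp1*, or 10.7% of the 28 genes, beside 21.7% of all genes. The XBP1 core TGACGTGG was found in 0 of the 28 genes and in 0.714% of all genes. The absence of these letters says nothing about sites outside the windows or about variants of the elements.

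**Figure D2:**
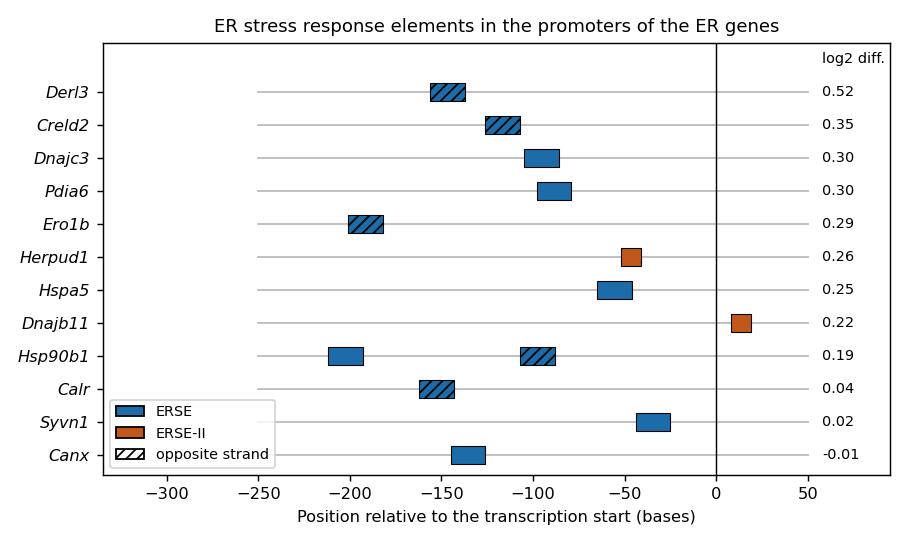
Position of each ERSE (blue) and ERSE-II (orange) relative to the transcription start (x axis, bases), for the 12 ER genes with a match, hatched where the element lies on the opposite strand. The log2 difference, *Mafk*-Tg minus WT, stands at the right, and rows run from *Derl3* at 0.52 to *Canx* at -0.01.

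On the *Mafk*-Tg array, 4 of the 11 chaperones and cofactors were at least 1.2-fold higher and 0 lower. Of the 9969 background genes, 5.36% were higher and 5.28% lower. *Hspa5* encodes BiP, the HSP70 of the ER that binds nascent chains and holds the sensors inactive. Its log2 value was 11.87 in WT against 12.12 in *Mafk*-Tg, a difference of 0.25 or 1.19-fold, just under the cutoff. *Hsp90b1*, the gene of GRP94, the HSP90 of the ER, had 11.68 in WT and 11.86 in *Mafk*-Tg, 1.14-fold higher. *Hyou1* encodes GRP170, a large HSP70 relative that exchanges the nucleotide of BiP, and its 9.60 in WT and 9.89 in *Mafk*-Tg put it over the cutoff at 1.22-fold. *Hspa13*, a further HSP70 relative in microsomes, had 8.58 and 8.80, a difference of 0.22. All HSP70 and HSP90 type genes were thus above WT in the *Mafk*-Tg array, within a narrow span of 0.19 to 0.29.

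The J-domain cofactors of BiP, which stimulate its ATPase, included the larger differences. *Dnajb9*, the gene of ERdj4, which also targets proteins for degradation and restrains IRE1, had 8.59 in WT against 8.99 in *Mafk*-Tg, a difference of 0.40 or 1.32-fold. *Dnajc3*, the gene of the p58IPK cochaperone, had 9.696 and 9.998, a difference of 0.30 or 1.23-fold. Both of its probe sets held the same values to the last digit and cannot be counted as separate measurements. *Dnajb11*, the gene of ERdj3, had 8.75 and 8.97, a difference of 0.22 that stayed under the cutoff. *Sdf2l1*, whose product forms a complex with ERdj3, had the largest difference of the chaperone group, 10.20 in WT and 10.69 in *Mafk*-Tg, which is 0.48 or 1.40-fold. Of the 9969 genes at or above the median level, 99.3% had a lower difference than *Sdf2l1* and 98.6% a lower one than *Dnajb9*. *Manf*, a secreted ER protein that binds BiP and that β-cells need to survive, had 8.97 and 9.11, a difference of 0.15.

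The lectin chaperones, which hold glycoproteins through their trimmed sugars, were nearly equal on both arrays. *Calr*, the gene of soluble calreticulin, had 11.70 in WT and 11.74 in *Mafk*-Tg. *Canx*, the gene of its membrane-bound relative calnexin, had 12.03 and 12.01. Their differences of 0.04 and -0.01 were the smallest of the group in size. *Canx* was the single chaperone not above 0, and its sign turned under quantile normalization.

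Of the 6 disulfide genes, 3 were at least 1.2-fold higher and 0 lower, and all had a difference above 0. The background held 5.36% higher and 5.28% lower. *Creld2*, an ER protein with a thioredoxin-like motif that is induced by ER stress, had 9.51 in WT and 9.86 in *Mafk*-Tg, the largest difference of the group at 0.35 or 1.27-fold. *Pdia6*, the gene of the oxidoreductase P5, had 10.06 and 10.36, a difference of 0.30. *Ero1b* encodes the form of the oxidase ERO1 that is most abundant in pancreas and recharges protein disulfide isomerase. Its values were 8.06 and 8.35, or 1.22-fold.

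The remaining isomerases were higher by less than 1.2-fold. *P4hb*, the gene of the classical protein disulfide isomerase, had 11.46 in WT against 11.61 in *Mafk*-Tg, a difference of 0.15. *Pdia3*, the gene of ERp57, which works with calnexin and calreticulin on glycoproteins, had 11.30 and 11.49, a difference of 0.19. *Pdia4*, the gene of ERp72, was measured by 2 probe sets that disagreed. The brighter of them went from 10.84 to 11.07, a difference of 0.22, and the dimmer from 5.58 to 5.43, a difference of -0.16. The dimmer lay under the median level of all genes, and the mean used for the gene, 8.21 in WT and 8.25 in *Mafk*-Tg, therefore had a difference of only 0.03. Neither probe set reached the cutoff.

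Of the 10 degradation genes, 3 were at least 1.2-fold higher and 0 lower, where the background held 5.36% higher and 5.28% lower. The pathway has a ubiquitin ligase in the ER membrane at its centre. *Syvn1*, the gene of this ligase HRD1, had 8.46 in WT against 8.48 in *Mafk*-Tg, a difference of 0.02. *Sel1l*, the gene of its stabilising partner, had 10.23 and 10.55, a difference of 0.32 or 1.24-fold. *Herpud1*, which helps to assemble the ligase complex and is a sensitive UPR target, had 9.83 and 10.08, 1.19-fold higher and just under the cutoff. The ligase and its partners in the same complex thus differed in size, from 0.02 to 0.32. *Os9*, a lectin that brings misfolded glycoproteins to SEL1L, had 8.86 and 9.06, a difference of 0.21.

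The derlins, membrane proteins through which substrates leave the ER, spanned the whole range of the degradation genes. *Derl3*, the derlin known as UPR-induced and typical of secretory cells, had 7.79 in WT and 8.32 in *Mafk*-Tg. Its difference of 0.52 or 1.44-fold was the largest of the 34 genes, and 99.5% of the 9969 genes at or above the median level had a lower one. *Derl2* had 8.14 and 8.33, a difference of 0.19. *Derl1* had 9.49 and 9.39, a difference of -0.10, and was the single degradation gene lower on the *Mafk*-Tg array, within the cutoff. The 3 EDEM genes, whose products trim mannose from glycoproteins to mark them for degradation, all had differences above 0, in the order *Edem1*, *Edem2*, *Edem3*. *Edem1* had 10.68 and 10.94, a difference of 0.27 that stood just over the cutoff and fell under it after loess correction of the difference for level. *Edem2* had 10.19 and 10.37, and *Edem3* had 8.64 and 8.73, differences of 0.17 and 0.09.

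Of the 7 sensors and factors, 0 were at least 1.2-fold higher and 0 lower. With shares of 5.36% higher and 5.28% lower among the 9969 brighter genes, fewer than 1 of 7 genes would be past the cutoff in either direction, so this count does not set the group apart from other genes. *Ern2* and *Ddit3* lie below the median level and outside that background, where differences spread more. *Ern1*, the gene of IRE1α, the sensor present in most cells, had 8.07 in WT and 8.11 in *Mafk*-Tg. *Ern2*, the gene of the epithelial form IRE1β, had 5.22 and 5.42, a difference of 0.21 at a level below the median of all genes, where the robust SD of the differences was 0.23 against 0.15 above it. *Eif2ak3*, the gene of PERK, had 7.72 and 7.91, a difference of 0.19. The kinase sensors were thus all slightly above WT. *Atf6* had 8.36 and 8.16, a difference of -0.20, the lowest of the 34 genes, and 10.4% of the 9969 genes at or above the median level had a lower one. *Atf6b*, its relative, had 8.13 and 8.05, a difference of -0.09.

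The factors downstream of IRE1 and PERK were equal or nearly so. *Xbp1* had 10.87 in WT against 10.91 in *Mafk*-Tg, a difference of 0.05. The array value is that of total *Xbp1* RNA, and the splicing by which IRE1 activates it was not measured. *Ddit3*, the gene of the death-promoting factor CHOP downstream of PERK, had 6.10 on both arrays, the same value to the last digit and below the median level. Such equality is not rare on these arrays, with 687 genes or 3.45% of all having 1 value on both. The sensors act by cleavage, phosphorylation and splicing, none of which an RNA level shows.

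**Figure D3:**
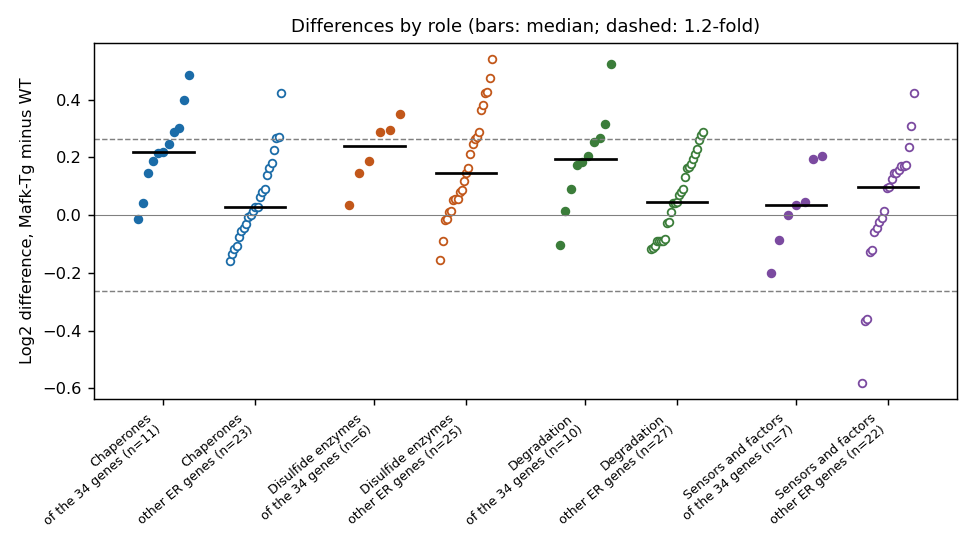
Log2 difference, *Mafk*-Tg minus WT (y axis), of each of the 34 ER genes (filled points) and of 97 other ER genes listed by the same roles (open points), with bars at the medians and dashed lines at 1.2-fold. The medians of the 34 genes are 0.22, 0.24, 0.20 and 0.04 from left to right by role, and those of the other genes 0.03, 0.15, 0.05 and 0.10.

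For comparison, 102 other genes of the same roles were listed, of which 97 were measured. The list was made with earlier results of these data known, so it cannot show how far the pattern extends. The median difference of the 97 genes was 0.08, under the 0.19 of the 34 genes, and 16 were at least 1.2-fold higher and 3 lower. Of the 97 genes, 83 lay at or above the median level and the rest were dimmer, so counts are set beside all genes as well. All genes held 7.96% higher and 10.5% lower, and the 9969 brighter genes 5.36% and 5.28%. Of the other disulfide genes, 9 of 25 were higher and 0 lower, with a median of 0.15, the largest median of the other roles. *Pdia2*, the gene of the pancreas-specific protein disulfide isomerase, had 9.70 in WT and 10.17 in *Mafk*-Tg, 1.39-fold higher. *Erp44*, which retains ERO1 in the early secretory pathway, had 8.64 and 9.06, and *Agr2*, an isomerase relative of mucus-secreting epithelia, had 6.84 and 7.38, differences of 0.43 and 0.54. *Ero1a*, the widely expressed counterpart of *Ero1b*, had 9.11 and 9.02, a difference of -0.09, where *Ero1b* had 0.29. *Pdia2* and *Ero1b*, the forms enriched in pancreas, had larger differences than *P4hb* and *Ero1a*. These pairs were picked, and other disulfide genes, *Agr2* at 0.54, *Erp44* at 0.43 and *Creld2* at 0.35, also exceeded *Ero1b*.

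The other chaperones and degradation genes showed less. Of 23 other chaperones, 3 were higher, 0 lower, and the median was 0.03. All genes held 7.96% higher and 10.5% lower, and the 9969 brighter genes, which include 20 of the 23, held 5.36% and 5.28%. *Dnajc1*, the gene of a further J-domain protein of the ER, had 7.49 and 7.76, *Fkbp2*, the gene of an ER prolyl isomerase, had 8.67 and 8.95, and *Sil1*, the gene of a nucleotide exchange factor of BiP, had 8.21 and 8.44. The first and second were just over the cutoff at 0.27 each, and *Sil1* at 0.23 was under it. Of 27 other degradation genes, 2 were higher and 0 lower, with a median of 0.05. The higher share is near the 7.96% of all genes and the 5.36% of the brighter genes, and does not set the group apart. The higher genes were *Rnf5*, the gene of an ER membrane ubiquitin ligase, at 0.29, and *Erlec1*, the gene of a lectin relative of OS9, at 0.28. *Selenos*, a selenoprotein of the retrotranslocation complex, had 0.26 and lay just under the cutoff.

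Among 22 other sensors, factors and regulators, 2 were higher, 3 lower, and the median was 0.10. With 7.96% higher and 10.5% lower among all genes, these counts do not set the group apart. Genes of the PERK branch had differences in both directions. *Atf4*, the factor whose translation PERK signalling favours, had 7.19 and 7.21, a difference of 0.01. *Trib3* and *Chac1*, induced through ATF4 and CHOP, had differences of 0.10 and 0.17 at levels below the median of all genes. *Ppp1r15a*, the gene of GADD34, which reverses the phosphorylation of eIF2α, had 6.68 in WT against 6.10 in *Mafk*-Tg, a difference of -0.58 at a level also just below that median. *Bhlha15*, the gene of MIST1, a factor of mature secretory cells such as acinar cells, had 9.07 and 9.50, 1.34-fold higher. *Wfs1*, the ER membrane protein gene mutated in Wolfram syndrome and important in β-cells, had 7.28 and 7.26. *Creb3l4*, a membrane-bound relative of ATF6, had 6.52 and 6.76, and *Tmbim6*, an inhibitor of ER stress death, had 9.64 and 9.81, both within the cutoff.

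**Figure D4:**
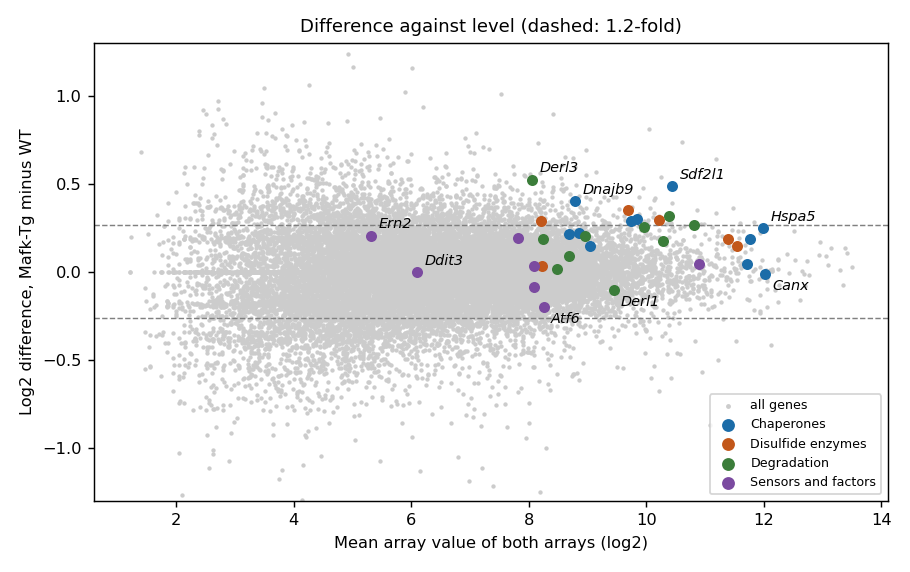
Log2 difference, *Mafk*-Tg minus WT (y axis), against the mean log2 value of both arrays (x axis) for all genes (grey; 13 genes beyond 1.3 in size are not drawn) and for the 34 ER genes by role (coloured), with dashed lines at 1.2-fold. Most coloured points lie at levels above the median of 6.40 and above a difference of 0, and *Ern2* and *Ddit3* are the dimmest.

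The arrays also differed in ways that run together with genotype. *Mafk* itself had 6.75 in WT against 6.997 in *Mafk*-Tg, a difference of 0.25 in whole pancreas, under 1.2-fold. *Xist* had a difference of 6.90, and *Kdm5d*, *Uty* and *Eif2s3y*, which are Y-linked, had differences of -3.93, -4.67 and -5.68, so that genotype and the sex of the embryos cannot be told apart. None of the 34 genes lies on the X or Y chromosome. In bulk tissue, fewer cells of a type and less RNA per cell cannot be told apart either.

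Marker genes of cell types, several of which make much secreted protein, differed between the arrays as well, and their part in the result was not tested. *Cpa1*, an acinar enzyme gene, had 13.48 in WT and 13.51 in *Mafk*-Tg, and *Gcg*, the α-cell hormone gene, had 11.68 and 11.96, so markers of the labelled tissue were bright on both arrays. Of 18 acinar genes measured, 5 were at least 1.2-fold higher and 0 lower, with differences from -0.20 to 0.71 and a median of 0.18. Beside this and the following lists, all genes held 7.96% higher and 10.5% lower. The 9969 brighter genes held 5.36% and 5.28%. *Ptf1a*, the acinar transcription factor gene, had 8.49 and 8.73, a difference of 0.24. Of 9 endocrine genes, 4 were higher and 1 lower, with a median of 0.26. Of 4 α-cell genes, 2 were higher and 0 lower, with differences from 0.02 to 0.68 and a median of 0.17. Of 7 β-cell genes, in whose cells the transgene is driven, 0 were higher and 5 lower, with a median of -0.46. *Ins2* had 8.79 and 8.40. The median of the ER genes was above 0, as were those of the acinar, endocrine, α-cell, duct and epithelial lists, and the β-cell median was below 0. Whether these directions are related was not tested.

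The medians of the epithelial and duct lists were above 0 and those of other lineages below it. Of 6 epithelial genes 0 passed the cutoff, with a median of 0.12, and of 5 duct genes 1 was higher, with a median of 0.15. Of 10 mesenchyme genes 1 was lower and 3 had a difference above 0, with a median of -0.10, and of 7 endothelial genes 0 passed the cutoff, with a median of -0.12. Of 10 leukocyte genes 9 were lower, with a median of -0.47, and of 8 erythroid genes 7 were lower, with a median of -0.68. The hepatocyte list had 7 of 10 genes lower, with a median of -0.50. The 8 reference genes measured had a median of 0.01. Linear levels summed over a list are set by its brightest probe sets and are given as a description only. They were 54849 in WT and 59418 in *Mafk*-Tg for the acinar list, 5525 and 3411 for the leukocyte list, of which *Srgn* made up more than any other gene, and 2633 and 1757 for the erythroid list. They were 2225 and 2115 for the β-cell list and 13189 and 12569 for the hepatocyte list, whose brightest genes, *Iapp* and *Serpina6*, had differences above 0, at 0.17 and 0.09, unlike most of their lists.

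**Figure D5:**
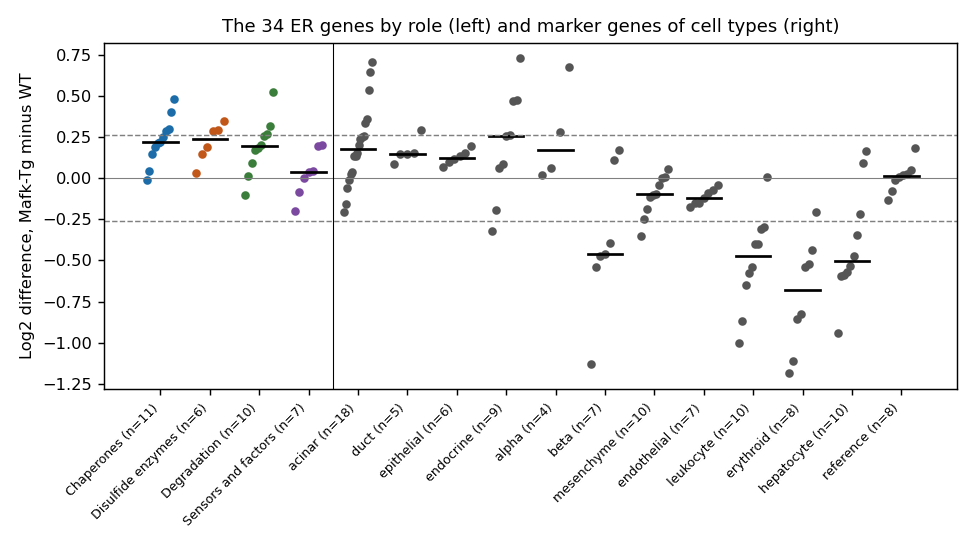
Log2 difference, *Mafk*-Tg minus WT (y axis), of the 34 ER genes by role (coloured, left) and of marker genes of cell types and reference genes (grey, right), each point a gene, with bars at the medians and dashed lines at 1.2-fold. The acinar, endocrine, α-cell and duct medians are 0.18, 0.26, 0.17 and 0.15, over points that spread widely in the acinar, endocrine and α-cell lists. The leukocyte, erythroid and β-cell medians lie at -0.47, -0.68 and -0.46.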

How the data were processed

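Total RNA of whole E15.5 pancreas was hybridised to Affymetrix MoGene-1_0-st-v1 arrays. Labels name a Trizol extraction and the study's methods a column kit. The authors normalized and summarized the arrays in Affymetrix Expression Console (settings not given in the sources used here) and deposited log2 values, with array medians of 6.01 and 6.01. These values were used as deposited. A single gene symbol was given to 21789 of 35556 probe sets. These were averaged per gene into 19938 genes, while 1621 probe sets had several symbols and 12146 are unnamed here. The 1.2-fold cutoff follows the study. With 1 array per genotype no test and no paired analysis was possible, and precision is limited by the number of arrays.

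The 34 genes and all lists were chosen with earlier results of these data known. All 34 are named. Of the other ER genes, up to 3 per role with the largest differences at or above the median level are named, plus *Pdia2*, *Ero1a*, *Atf4*, *Trib3*, *Ppp1r15a*, *Chac1*, *Bhlha15* and *Wfs1*. Of the cell type lists, single genes are *Ins2*, *Gcg*, *Cpa1*, *Ptf1a*, *Xist* and the Y-linked genes. *Mafk* was added as a check of the labels, and *Srgn*, *Iapp* and *Serpina6* were chosen with their values known. Listed genes without a probe set of a single symbol were not analysed here.

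Alternatives were quantile normalization, equal medians, loess correction of the difference for level (span 0.3), the brightest probe set per gene, leaving out genes below the median level, and cutoffs of 1.1-fold and 1.5-fold. Promoters came from the RefSeq table of GRCm38.p6, which holds 32851 windows of 27025 genes. The counting and the equal-medians step were tested on the WT values with known differences put into 200 genes. The work used matplotlib 3.10.9, statsmodels 0.14.6, pandas 2.3.3 and numpy 2.4.6 under Python 3.11.15.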

Additional observations from a re-analysis of the deposited data

How the results depend on the processing

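The number of the 34 ER genes at least 1.2-fold higher was 10 with equal medians, quantile normalization, the brightest probe set and without dim genes, and 9 after loess, where *Edem1* fell under the cutoff. It was 23 at 1.1-fold and 0 at 1.5-fold. The number lower was 0 under each scaling and probe set choice and at 1.5-fold, and 1 at 1.1-fold, which was *Atf6*. Medians over the genes and over each role kept their sign under each scaling. The sign turned for *Canx* with quantile normalization. *Ddit3*, at 0.00, has no sign to turn. *Pdia4* moved to 0.22 with its brightest probe set. Without genes below the median level, the share of all genes at least 1.2-fold lower was 5.28%. No paired analysis was possible because each genotype has 1 array. At 1 array per genotype, differences of the size of the robust SD, 0.15 on the log2 scale for genes at or above the median level, are common among all genes.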

Other observations

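Genes outside the ER gene set that hold an ERSE or ERSE-II in their promoter window numbered 37, of which 18 were measured. Their median difference was 0.01 on the log2 scale, and 9 lay above 0. At least 1.2-fold higher was 1 gene and 0 were lower, beside 7.96% and 10.5% of all genes. The gene that was higher was *Calr4*, a calreticulin relative, with 5.27 in WT and 5.70 in *Mafk*-Tg, below the median level of all genes. *Alg12*, the gene of a mannosyltransferase of the ER that helps to build the glycan donor, had 7.07 and 7.15, a difference of 0.08. *Krtcap2*, the gene of a subunit of the oligosaccharyltransferase complex, had 9.64 and 9.74, a difference of 0.10, and *Nucb1*, a calcium-binding protein of the Golgi, had 0.04. These 4 genes were picked with their values known.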
